A study of Mus musculus with 12 samples.

Results

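The conjugation enzymes described here are the 61 genes whose symbols begin with Gst followed by a class letter of a, k, m, o, p, t or z and a number, with Ugt and a number, or with Sult and a number, out of 34348 genes in the deposited expression table. They comprise 22 glutathione transferases (Gst), 22 glucuronosyltransferases and related sugar transferases (Ugt) and 17 sulfotransferases (Sult), and they lie on 12 chromosomes. Membership was read from the gene symbol alone, though the families were chosen with earlier results of these data known. All 61 had at least 1 read in at least 1 library. A member was tested in a tissue if 3 or more of its libraries reached an RPKM of 0.5, which 45 members did in liver and 39 in small intestine, with 37 doing so in both tissues. In liver the tested members were 20 Gst, 19 Ugt and 6 Sult genes, and in small intestine 20 Gst, 14 Ugt and 5 Sult genes. The remaining 14 members reached it in neither tissue.

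Conjugation is the second stage of the handling of drugs, toxins and body-made lipophilic compounds, in which a water-soluble group is attached so that the product can leave in bile or urine. Glutathione transferases attach the tripeptide glutathione to electrophiles, glucuronosyltransferases attach glucuronic acid from UDP-glucuronate, and sulfotransferases attach sulfate from the donor PAPS. Hepatocytes and the enterocytes that line the small intestine are the main sites of all 3 reactions, and in mice many members differ in level between the sexes.

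Total RNA of C57BL/6 mice was sequenced in 4 groups of 3 libraries each, namely liver of LCWE-induced mice, liver of mice given PBS, small intestine of LCWE-induced mice and small intestine of mice given PBS. LCWE, not spelled out in the labels, commonly stands for Lactobacillus casei cell wall extract, which induces a vasculitis in mice. The authors' differential table writes LCWECFA for the treated groups without explaining CFA, so whether a further agent was given is not known here, and an LCWE effect below means the difference between the groups as labelled. Dose, time after treatment, age and the part of the small intestine sampled are not given in the labels. The libraries carry the replicate numbers 1, 2 and 4 for LCWE and 2, 3 and 4 for PBS, and per-library values below follow that order. Nothing in the labels ties each library to its own animal, so the p-values reflect the spread among these libraries, part of which may be technical.

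Between 30294594 and 44921885 reads were assigned to genes per library. Values are in RPKM, the reads of a gene per kilobase of its length, relative to all reads assigned in that library, which allows genes to be compared with each other. Hepatocyte markers summed to between 28610 and 50350 RPKM in liver and to between 192 and 450 RPKM in intestine, and enterocyte markers to between 2471 and 20330 RPKM in intestine and to between 195 and 331 RPKM in liver. Xist stood below 0.06 RPKM and the Y-linked Ddx3y between 9.88 and 17.6 RPKM in the 12 libraries. Liver PBS replicate 2 stood apart, being the highest or lowest of the 6 liver libraries for 68.9% of the tested members and for 59.9% of all tested genes. In intestine the same held of LCWE replicate 4 for 61.5% of members and 51.6% of genes, and of PBS replicate 2 for 66.7% and 42.5%. The intestinal groups differed in regional markers. Markers of the proximal small intestine (Gata4, Fabp1, Lct, Cybrd1 and Onecut2) summed to 51.6, 78.9 and 124 RPKM in LCWE against 1674, 434 and 106 RPKM in PBS. Markers of the distal small intestine (Fabp6, Slc10a2, Cyp4f14 and Muc3) summed to 5887, 5333 and 4082 RPKM in LCWE against 595, 2429 and 3846 RPKM in PBS. Fabp1 and Fabp6 carried most of these sums, and the distal list was divided. Fabp6 stood at 4837, 4843 and 3517 RPKM in LCWE against 69.4, 1716 and 2991 RPKM in PBS, whereas Cyp4f14 stood at 165, 129 and 89.3 RPKM in LCWE against 235, 220 and 213 RPKM in PBS, and Muc3 had a log2 fold change of -0.08. In bulk tissue, fewer cells of a type and less RNA per cell cannot be told apart.

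The rows of the 9 Ugt1a genes are close to being 1 measurement. They lie nested on chromosome 1 (mm10), where Ugt1a10 spans chr1:88055388-88219004 on the plus strand, and each has its own first exon spliced to the same downstream exons, of which 1311 bases are shared by all 9. The coding sequence at this splice is shown for each gene to let the difference between own and shared parts be seen, with the last 40 bases of the own first exon in lower case and the first 30 bases of the shared second exon (mm10 chr1:88215044-88215073) in capitals, read 5′ to 3′ from the GENCODE M21 transcripts.
Ugt1a1: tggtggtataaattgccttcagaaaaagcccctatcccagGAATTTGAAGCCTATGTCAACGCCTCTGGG
Ugt1a2: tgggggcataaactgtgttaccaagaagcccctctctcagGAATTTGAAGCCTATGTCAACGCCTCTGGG
Ugt1a5: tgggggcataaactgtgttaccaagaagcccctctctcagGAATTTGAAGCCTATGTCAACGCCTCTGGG
Ugt1a6a: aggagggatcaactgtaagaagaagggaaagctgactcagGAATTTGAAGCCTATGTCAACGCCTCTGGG
Ugt1a6b: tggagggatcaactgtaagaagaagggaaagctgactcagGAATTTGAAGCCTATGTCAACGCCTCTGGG
Ugt1a7c: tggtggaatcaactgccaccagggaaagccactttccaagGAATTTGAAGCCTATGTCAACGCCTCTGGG
Ugt1a8: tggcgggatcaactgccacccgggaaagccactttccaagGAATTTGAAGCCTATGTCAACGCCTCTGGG
Ugt1a9: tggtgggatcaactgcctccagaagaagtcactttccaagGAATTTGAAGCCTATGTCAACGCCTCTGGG
Ugt1a10: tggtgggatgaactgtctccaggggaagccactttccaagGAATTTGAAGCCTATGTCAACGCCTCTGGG
The capital part was identical in all 9, and the own parts of Ugt1a2 and Ugt1a5 were identical to each other over these 40 bases. Against Ugt1a1, the own parts differed at between 9 positions in Ugt1a9 and 20 positions in Ugt1a6a.

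Reads in the shared exons were counted for every one of the 9 genes. In liver PBS replicate 2, for example, Ugt1a8, Ugt1a2 and Ugt1a10 had 9540, 9542 and 9552 reads. Their counts also lay within 12 reads of each other in each of the other 11 libraries, so these 3 rows hold little besides the shared reads. Reads beyond those of the lowest Ugt1a gene of the same library therefore show what lies outside the bases shared by all 9. By this measure Ugt1a1, whose enzyme conjugates bilirubin, had 1533, 1889 and 1635 own reads in LCWE livers against 1937, 2252 and 2047 in PBS livers, which was 16.9% to 26.7% of its count in these 6 libraries. In intestine Ugt1a1 had 484, 353 and 246 such reads in LCWE against 841, 490 and 351 in PBS. These read counts are not scaled for depth. Per kilobase of its own bases and relative to the library, they came to 44.2, 46.1 and 51.6 RPKM in LCWE livers against 47.5, 68.8 and 57.0 RPKM in PBS livers. In intestine they came to 13.2, 11.2 and 7.96 RPKM in LCWE against 24.1, 16.8 and 12.7 RPKM in PBS, and the groups overlapped in both tissues.

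Of the remaining genes, Ugt1a9, Ugt1a5, Ugt1a6a and Ugt1a6b had such reads mainly in liver and Ugt1a7c in both tissues, again in reads not scaled for depth. Ugt1a9 had 535, 1029 and 679 reads beyond the lowest gene in LCWE livers against 240, 873 and 689 in PBS livers, but between 2 and 12 in each intestinal library. Ugt1a5 had 237, 307 and 494 in LCWE livers against 1166, 359 and 505 in PBS livers, where PBS replicate 2 stood far above the rest, and between 0 and 6 in intestine. Ugt1a6a had 1098, 1239 and 1054 in LCWE livers against 1379, 1393 and 1609 in PBS livers, and between 109 and 203 in intestine. Scaled as for Ugt1a1, these came to 12.9 to 14.2 RPKM in LCWE livers and 14.4 to 19.1 RPKM in PBS livers, without overlap. Ugt1a6b had 353 to 361 in LCWE livers, 379 to 448 in PBS livers and 2 to 7 in intestine. Ugt1a7c had 944 to 1118 reads beyond the lowest gene in LCWE livers and 1000 to 1390 in PBS livers. In intestine it had 575 to 688 in LCWE and 693 to 1301 in PBS, the highest such share there (32.7% to 38.8% of its count). Scaled as for Ugt1a1 over all its own bases, these reads overlapped between the tissues, at 11.7 to 18.8 RPKM in liver and 8.28 to 17.8 RPKM in intestine. Part of the Ugt1a7c and Ugt1a6a excess may fall in exon bases shared between some of Ugt1a7c, Ugt1a6a and Ugt1a6b but not by all 9. The Ugt1a7c row also ends at 88220002, past the ends of the other Ugt1a rows (88218997 to 88219004). Its excess thus covers this stretch as well as its first exon, and the parts cannot be told apart. The antisense gene Gm20528 overlaps 394 to 922 exon bases of each Ugt1a gene, and its reads cannot be told apart from theirs because strandedness is not stated. Counts below are given over all members and again with Ugt1a1 standing for the 9, that is, over 53 members.

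**Figure D1:**
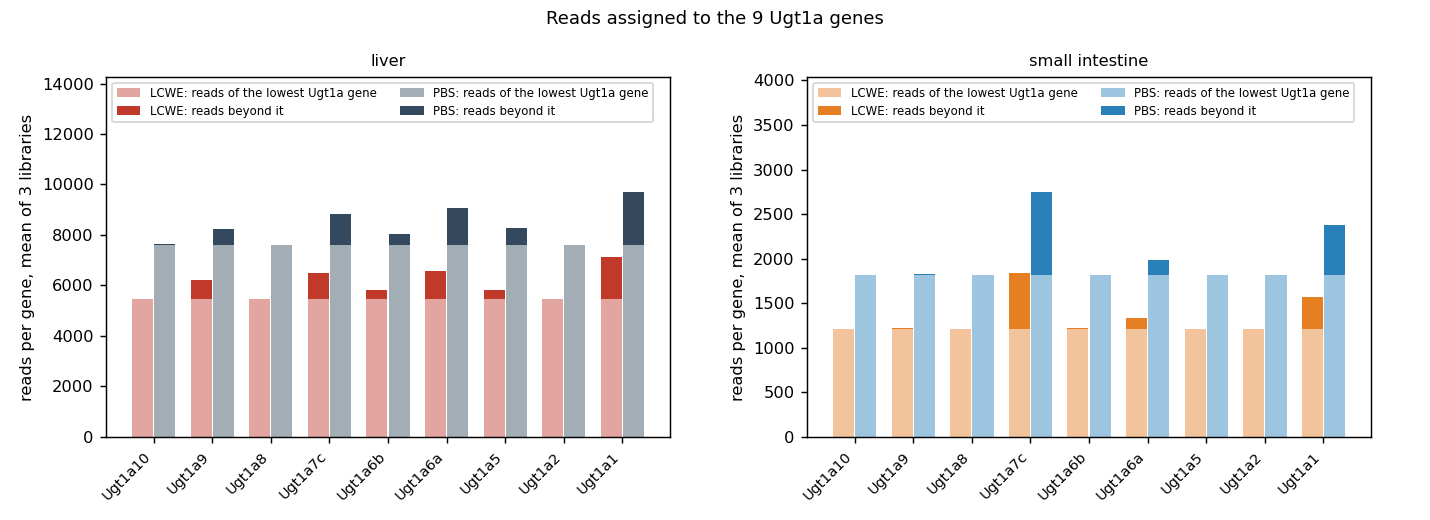
Mean reads (n = 3 libraries per group) of each Ugt1a gene on the vertical axis, LCWE left of PBS, with the reads of the lowest Ugt1a gene of the library in the pale part and reads beyond it in the full-colour part. Ugt1a1 carries 16.9% to 26.7% of its reads beyond the lowest gene in liver, and Ugt1a8, Ugt1a2 and Ugt1a10 stand at the shared level in both tissues.

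Other near-identical members should be read as less certain one by one. Counting stretches of 50 bases in the annotated transcripts, Gstp1 and Gstp2 had 62.3% and 64.3% of them in common with each other, Gsta1 and Gsta2 44.6% and 44.8%, and Ugt2b5 and Ugt2b38 34.8% and 34.2%, whereas 31 of the 61 members shared none with another member.

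Levels were first compared between control liver and control small intestine, to show where each enzyme is made without LCWE. Most members were higher in liver, and a small set of Gst and Sult genes was higher in intestine. Of the 37 members that reached the filter in both tissues, 29 were higher in liver, 5 were lower and 3 did not pass the test (limma, Benjamini-Hochberg adjusted p below 0.05), where 17.2% of all such genes were higher and 56.9% lower. With Ugt1a1 alone for its cluster the split was 21 higher and 5 lower of 29. The median log2 difference, liver minus intestine, was 1.91 over the 37 and -0.54 over all such genes. RPKM are shares of a library, and over all tested genes the median difference of -0.69 became -0.03 after quantile scaling and -0.08 after median-ratio scaling. Under quantile scaling 2 of the 47 members tested in the 4-group fit changed sign, Gstm5 (log2 difference -0.35, and 0.27 scaled) and Gstt3 (-0.06, and 0.69 scaled).

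Glutathione transferases dominated liver. Gstm1, the main mu class enzyme, averaged 972 ± 159 RPKM in control liver and 37.9 ± 7.16 RPKM in control intestine (mean ± SD, n = 3 each, as below), a log2 difference of 4.67 (SE 0.238, limma adjusted p = 8.23e-09). Gstp1, the main pi class enzyme, averaged 804 ± 203 RPKM in control liver and 66.1 ± 3.21 RPKM in control intestine. Gsta3, an alpha class enzyme that protects mice from aflatoxin, averaged 412 ± 15.6 RPKM in control liver and 2.92 ± 0.61 RPKM in control intestine, and its log2 difference of 6.93 (adjusted p = 3.06e-10) was the largest of all members. These 3 genes made up 71.6% to 78.6% of the summed Gst RPKM in control livers and 25.9% to 30.5% in control intestines. Gstz1, which isomerizes maleylacetoacetate in tyrosine breakdown, was 4.31 log2 units higher in liver.

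Other Gst genes went the opposite way. Gsto1, an omega class enzyme that reduces dehydroascorbate, averaged 19.3 ± 1.38 RPKM in control liver and 62.9 ± 4.9 RPKM in control intestine. Gsta1 averaged 16.01 ± 6.78 RPKM in control liver and 56.3 ± 23.8 RPKM in control intestine, a log2 difference of -1.79 (adjusted p = 0.000631), while its neighbour Gsta2 was 5.49 log2 units higher in liver. The ratio of Gsta1 to Gsta2 was thus 0.282 to 0.35 in control livers and 77.9 to 128 in control intestines, in spite of the sequence that both share. Gstm3 was lower in liver by 1.03 log2 units (adjusted p = 0.0339), a call lost under quantile scaling (log2 difference -0.66, adjusted p = 0.174).

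Of the 14 Ugt genes that reached the filter in both tissues, 13 were higher in liver by the test and 0 lower. Ugt2b5 and Ugt2b36, of the subfamily that conjugates steroids, were 6.32 and 5.75 log2 units higher in liver, and Ugt2b1, which reached the filter only there, 6.14 units. The exception was Ugt2b34, with 40.4, 64.1 and 65.3 RPKM in control livers against 46.9, 43.1 and 39.3 RPKM in control intestines, where the groups overlapped (log2 difference 0.36, SE 0.194, adjusted p = 0.111). Under quantile scaling it passed as well (0.62, adjusted p = 0.0137).

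Sulfotransferases divided between the tissues. Sult1a1, which sulfates phenols, averaged 118 ± 66.3 RPKM in control liver and 3.51 ± 1.11 RPKM in control intestine. Sult2a8, which sulfates bile acids in mouse liver and reached the filter only there, averaged 93.8 ± 7.27 RPKM in control liver and 0.404 ± 0.145 RPKM in control intestine. Together they were 85.9% to 87.7% of the summed Sult RPKM in control livers. In intestine the leading genes were others. Sult1b1, which sulfates thyroid hormone and phenols, averaged 9.03 ± 3.49 RPKM in control liver and 103 ± 20.6 RPKM in control intestine (log2 difference -3.48, adjusted p = 3.4e-07). Sult1d1, which sulfates catecholamines in mice, averaged 21.3 ± 2.82 RPKM in control liver and 54.5 ± 4.66 RPKM in control intestine. Together they were 91.8% to 95.1% of the summed Sult RPKM in control intestines. Sult2b1, a cholesterol sulfotransferase, reached the filter only in intestine, with 0, 0.0141 and 0.00644 RPKM in control livers against 5.88, 6.61 and 6.16 RPKM in control intestines.

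Sult2a1, Sult2a2 and Sult3a1, which in mouse liver are made mainly by females, were each listed at 0 in 11 of the 12 libraries. A count of 0 still allows 3 reads, or 0.0638 to 0.117 RPKM for these genes in the liver libraries. In the same livers the female-biased markers summed to 1.12 to 2.07 RPKM and the male-biased markers to 8566 to 18480 RPKM. Ugt8a, which makes the galactolipid of myelin, and Sult4a1, best known from brain, stayed below 0.04 and at or below 0.605 RPKM in the 12 libraries.

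**Figure D2:**
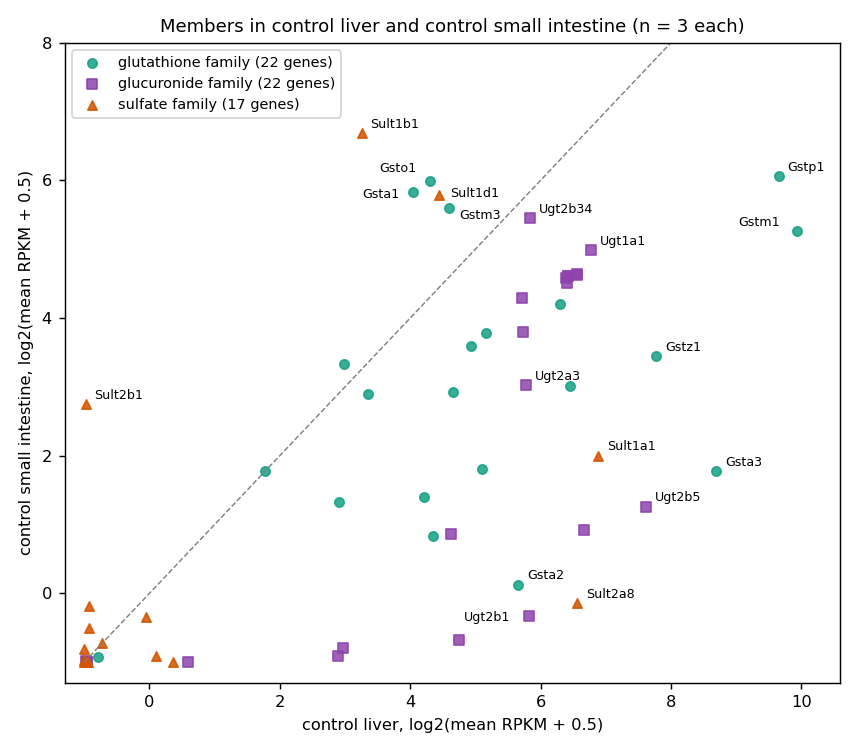
Mean level of each of the 61 members in control small intestine (vertical axis) against control liver (horizontal axis), both as log2(RPKM + 0.5), n = 3 libraries each, with the family given by colour and shape and equal levels on the dashed line. Most points lie right of the line, and Sult1b1, Sult1d1, Sult2b1, Gsto1, Gsta1 and Gstm3 lie left of it.

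The liver comparison asks how LCWE-induced mice differed from PBS mice in these enzymes. Gsta3 alone passed the test, and it fell. Most tested Gst and Ugt genes had log2 fold changes below 0, by modest amounts. Of the 45 tested members, 1 fell and 0 rose, where 4.04% of all 14404 tested genes were called, 0.646% downward and 3.39% upward. At an unadjusted p below 0.05, 15 members were lower and 1 higher, where all genes gave 5.82% and 12.9%. The log2 fold change was below 0 for 40 of the 45, against 39.8% of all tested genes, and its median was -0.27 over members and 0.06 over all genes. LCWE libraries lay entirely below PBS libraries for 16 members and entirely above for 1, where all genes gave 8.84% and 18.7%. With Ugt1a1 alone for its cluster, 32 of 37 were below 0, the median was -0.24, 7 were lower and 1 higher at that p, and 8 lay entirely below. As the 45 are those with enough RPKM in this tissue, these figures do not describe all 61.

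Gsta3 (chr1:21240589-21265661, plus strand) stood at 239, 253 and 296 RPKM in LCWE livers against 430, 404 and 402 RPKM in PBS livers. The groups were far apart relative to their spread, with the highest LCWE library well under the lowest PBS library. The fold change was 0.635 (log2 -0.66, SE 0.112, limma adjusted p = 0.0307). The call was lost without LCWE replicate 1 (adjusted p = 0.142), LCWE replicate 2 (0.159), PBS replicate 3 (0.102) or PBS replicate 4 (0.0953), and its log2 fold change ranged between -0.74 and -0.59 over all 6 leave-one-out fits. It was also lost with no filter on low genes (0.0654), in 1 fit over the 4 groups (0.169) and with the replicate numbers as a block.

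Further alpha and mu class genes differed without passing the test. Gsta4, which conjugates the lipid peroxidation product 4-hydroxynonenal and is named here after its values were seen, stood at 43.2, 44.2 and 55.8 RPKM in LCWE livers against 66.3, 89.5 and 77.8 RPKM in PBS livers (log2 -0.70, SE 0.154, adjusted p = 0.0604). Gstm1 stood at 540, 583 and 668 RPKM in LCWE livers against 789, 1058 and 1070 RPKM in PBS livers (log2 -0.70, SE 0.157, adjusted p = 0.064). Gstm4, a further mu class gene, stood at 55.7, 63.6 and 66.6 RPKM in LCWE livers against 82.3, 88.8 and 88.6 RPKM in PBS livers (log2 -0.48, SE 0.104, adjusted p = 0.0563). In each of these 3 genes all LCWE livers were below all PBS livers. Without PBS replicate 2, which stands apart, Gsta3, Gsta4, Gstm1, Gstm4 and Ugt2b5 were called, all lower in LCWE. The share of all genes called in that fit is not given here, so these calls are no result about the families.

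The pi class differed less. Gstp1 stood at 661, 753 and 639 RPKM in LCWE livers against 570, 909 and 933 RPKM in PBS livers, and the groups overlapped because PBS replicate 2 was the lowest of the 6. Gsto1, at 18.1, 20.7 and 17.5 RPKM in LCWE livers against 18.9, 20.8 and 18.1 RPKM in PBS livers, was nearly level (log2 -0.04, SE 0.109). Of the 20 tested Gst genes, 19 had a log2 fold change below 0 and the median was -0.27, with Gstm2 (0.11) the exception. Summed over the 22 Gst genes, the level was 2094 ± 107 RPKM in LCWE livers and 2867 ± 321 RPKM in PBS livers, with no overlap between groups.

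No Ugt gene passed the test in liver. Ugt1a1 stood at 79.3, 78.0 and 89.9 RPKM in LCWE livers against 116, 106 and 105 RPKM in PBS livers (log2 -0.40, SE 0.1, adjusted p = 0.081), and its groups did not overlap. Ugt1a6a, which shares most of those reads, had a log2 fold change of -0.41 (SE 0.104, adjusted p = 0.081). In the Ugt1a9 first exon alone the sign turned, with a log2 fold change of 0.46 by the reads beyond the lowest gene against -0.36 for its whole row (adjusted p = 0.683 and 0.105). Those reads came to 16.04, 26.1 and 22.2 RPKM in LCWE livers against 6.12, 27.7 and 19.9 RPKM in PBS livers, and without the low PBS replicate 2 the log2 fold change was -0.16 (adjusted p = 0.739). Ugt2b5 stood at 144, 159 and 133 RPKM in LCWE livers against 133, 239 and 216 RPKM in PBS livers, where PBS replicate 2 lay among the LCWE values (log2 -0.39, SE 0.223, adjusted p = 0.409). Ugt2b36 stood at 82.8, 88.5 and 80.0 RPKM in LCWE livers against 86.5, 116 and 101 RPKM in PBS livers, and its groups and those of Ugt2b34 overlapped likewise. With Ugt1a1 alone for its cluster, 9 of 11 tested Ugt genes were below 0, with a median of -0.25.

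Sult genes showed no common direction in liver. Sult1a1 stood at 86.8, 90.1 and 111 RPKM in LCWE livers against 194, 84.4 and 75.1 RPKM in PBS livers, so that PBS replicate 2 alone set its log2 fold change of -0.17, which was 0.26 without that library (adjusted p = 0.841 and 0.288). Sult2a8 stood at 92.7, 68.0 and 79.5 RPKM in LCWE livers against 85.8, 100 and 95.7 RPKM in PBS livers, with overlap. Sult1d1 stood at 34.1, 23.0 and 23.6 RPKM in LCWE livers against 24.6, 19.7 and 19.7 RPKM in PBS livers, also with overlap (log2 0.31, SE 0.18, adjusted p = 0.424). Sult5a1, at 1.41, 1.07 and 1.03 RPKM in LCWE livers against 0.421, 0.632 and 0.673 RPKM in PBS livers, was the single tested member whose LCWE libraries all lay above (log2 0.63, SE 0.156, adjusted p = 0.077). Sult1e1, the oestrogen sulfotransferase, was under the filter and is named after its values were seen. It stood at 1.49, 0.233 and 0.278 RPKM in LCWE livers against 0.108, 0.157 and 0.041 RPKM in PBS livers, with the groups apart but 1 LCWE library far above the others (log2 0.80, adjusted p = 0.433 in the fit with no filter).

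Summed markers also differed between the groups. Hepatocyte markers (5 of 5 in the table, none at 0) summed to 28610, 30540 and 32110 RPKM in LCWE livers against 50350, 36110 and 35730 RPKM in PBS livers. Alb, Apoa2, Serpina1a and Ttr carried this sum, Cps1 of the same list was higher in every LCWE library (log2 0.39, adjusted p = 0.234), and 0 of 5 were called. Leukocyte markers (4 of 4 in the table) summed to 114, 116 and 162 RPKM in LCWE livers against 41.7, 40.9 and 59.2 RPKM in PBS livers, and the 2 of them that were tested, Ptprc and Lyz2, both rose. Male-biased liver markers summed to 8566, 9546 and 11280 RPKM in LCWE livers against 13990, 15310 and 18480 RPKM in PBS livers, with 0 of 5 called. Mup20 carried most of this sum. LCWE livers lay entirely below PBS livers for 4 of the 5, whereas Cyp7b1 overlapped and had a log2 fold change of 0.38 (adjusted p = 0.48). Pericentral markers, from the zone of the lobule where many conjugation genes are highest, summed to 1352, 961 and 879 RPKM in LCWE livers against 1200, 1167 and 983 RPKM in PBS livers, with overlap. Their part in the differences of the conjugation genes was not tested.

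**Figure D3:**
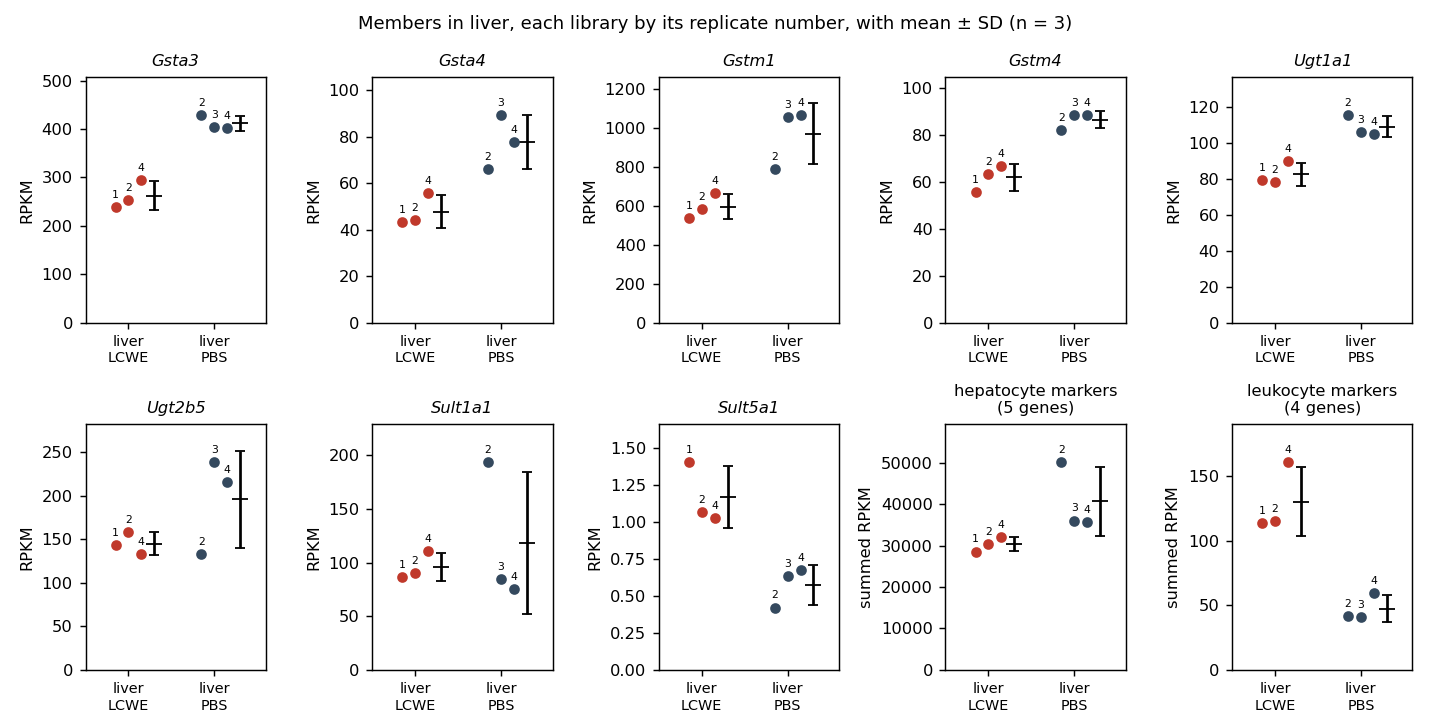
RPKM of 8 members and summed RPKM of hepatocyte and leukocyte markers in each liver library, LCWE left of PBS, each point marked with its replicate number and the black bar giving mean ± SD (n = 3). Gsta3 lies between 239 and 296 RPKM in LCWE and between 402 and 430 RPKM in PBS, while PBS replicate 2 departs from the other PBS libraries in Ugt2b5 and Sult1a1.

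The sequence upstream of the gene that fell is shown with 3 others that the results turn on, each the annotated start site with 250 bases before and 50 after it, from RefSeq on GRCm38.p6. Capitals mark matches on either strand to any of 4 motifs. The first is TGACNNNGC, the core of the antioxidant response element that NRF2 binds. The second is GTTAAT, a part of the site of the liver and gut factor HNF1. The third is GCGTG, the core of the xenobiotic response element that the aryl hydrocarbon receptor binds. The last is AGATAA, which is bound by the GATA factors. The windows are chr1:21240335-21240634 plus for Gsta3, chr3:107969125-107969424 minus for Gstm3, chr1:88211709-88212008 plus for Ugt1a1 and chr5:87337146-87337445 minus for Ugt2a3.
Gsta3: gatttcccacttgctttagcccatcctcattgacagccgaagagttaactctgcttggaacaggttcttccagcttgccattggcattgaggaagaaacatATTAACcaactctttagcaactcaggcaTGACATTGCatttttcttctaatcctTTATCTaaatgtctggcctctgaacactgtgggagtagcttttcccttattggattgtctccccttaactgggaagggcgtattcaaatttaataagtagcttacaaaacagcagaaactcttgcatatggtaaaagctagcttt
Gstm3: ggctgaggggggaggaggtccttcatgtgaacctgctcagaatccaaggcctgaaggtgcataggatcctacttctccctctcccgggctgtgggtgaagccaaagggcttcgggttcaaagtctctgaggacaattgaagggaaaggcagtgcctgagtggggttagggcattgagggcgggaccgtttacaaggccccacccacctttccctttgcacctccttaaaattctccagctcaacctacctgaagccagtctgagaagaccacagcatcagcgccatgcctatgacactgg
Ugt1a1: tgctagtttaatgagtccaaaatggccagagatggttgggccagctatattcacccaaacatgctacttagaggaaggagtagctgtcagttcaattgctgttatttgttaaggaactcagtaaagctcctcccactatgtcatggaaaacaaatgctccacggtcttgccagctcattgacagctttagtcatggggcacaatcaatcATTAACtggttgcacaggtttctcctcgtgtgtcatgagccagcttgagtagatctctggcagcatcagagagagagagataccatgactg
Ugt2a3: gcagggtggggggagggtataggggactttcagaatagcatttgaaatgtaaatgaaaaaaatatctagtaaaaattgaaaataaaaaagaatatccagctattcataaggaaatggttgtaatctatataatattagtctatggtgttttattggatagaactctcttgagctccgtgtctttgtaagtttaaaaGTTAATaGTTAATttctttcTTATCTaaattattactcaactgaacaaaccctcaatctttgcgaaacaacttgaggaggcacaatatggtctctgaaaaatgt
In Gsta3 the matches began at -149 (GTTAAT, minus strand), -121 (TGACNNNGC, plus strand) and -95 (AGATAA, minus strand) relative to the start site. Ugt1a1 had GTTAAT at -41 on the minus strand, and Ugt2a3 had it at -54 and -47 on the plus strand and AGATAA at -34 on the minus strand. These letters did not occur in the Gstm3 window. No match overlapped another.

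Promoters were found for 53 of the 61 members, 64 in all with alternative starts. TGACNNNGC occurred in 3 of 28 Gst promoters (Gsta3, Gstm5 and Gstm7), in 0 of 20 Ugt and in 0 of 16 Sult promoters, against 12.4% of all 32851 promoters of this length. GTTAAT occurred in 1 of 28 Gst, 6 of 20 Ugt and 3 of 16 Sult promoters, against 7.10% of all. GCGTG occurred in 7, 3 and 4 of them, against 32.4%, and AGATAA in 3, 4 and 4, against 11.2%. A match is a description of letters and not a site of binding.

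The intestinal comparison put the same question to the small intestine. No member passed the test there, and the log2 fold changes farthest from 0 were those of Gstm3 and Ugt2a3. None of 39 tested members was called by limma, and neither was any of the 17510 tested genes (0%). At an unadjusted p below 0.05, 18 members were lower and 3 higher in LCWE, where all genes gave 4.89% and 7.69%. The log2 fold change was below 0 for 30 of 39, against 31% of all genes, with medians of -0.35 and 0.11. LCWE libraries lay entirely below PBS libraries for 21 of the 39 and entirely above for 2, where all genes gave 6.15% and 13.2%. Sult1c2, among those higher by both counts, reached the filter only in its LCWE libraries. With Ugt1a1 alone for its cluster, 22 of 31 were below 0, the median was -0.23, 10 were lower and 3 higher at that p, and 13 lay entirely below.

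Gstm3, a mu class transferase (chr3:107963696-107969283, minus strand), stood at 4.55, 15.6 and 3.90 RPKM in LCWE intestines against 41.2, 50.1 and 52.9 RPKM in PBS intestines. The LCWE libraries were all far below the PBS libraries, with LCWE replicate 2 the highest of them. The fold change was 0.147 (log2 -2.77, SE 0.471, unadjusted p = 0.000712, adjusted p = 0.186). Without LCWE replicate 2 it was called (log2 -3.36, adjusted p = 0.00626), as it was in 1 fit over the 4 groups (adjusted p = 0.0144). The share of all genes called in those fits is not given here. Within PBS the gene was lowest in replicate 2, the library with the highest proximal sum.

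Its neighbour Gstm6, named after its values were seen, stood at 0.575, 1.46 and 1.14 RPKM in LCWE intestines against 3.69, 3.06 and 2.19 RPKM in PBS intestines (log2 -1.18, SE 0.265, adjusted p = 0.232). Gstk1, the kappa class enzyme of mitochondria and peroxisomes, stood at 4.04, 4.79 and 4.64 RPKM in LCWE intestines against 5.96, 7.85 and 7.60 RPKM in PBS intestines (log2 -0.61, SE 0.133, adjusted p = 0.228). Gsta1, the alpha class gene that is high in intestine, stood at 31.2, 32.8 and 31.7 RPKM in LCWE against 83.2, 47.6 and 37.98 RPKM in PBS (log2 -0.73, adjusted p = 0.355). In all 3 the LCWE libraries lay below the PBS libraries, narrowly so for Gsta1, whose PBS replicate 2 was far above the rest. Gstp1 and Gsto1, the most abundant Gst genes of the intestine, differed little, with log2 fold changes of -0.09 (SE 0.0983) and -0.17 (SE 0.104). Gstm1 stood at 19.9, 30.8 and 40.7 RPKM in LCWE against 29.7, 42.3 and 41.8 RPKM in PBS, with overlap (log2 -0.35, adjusted p = 0.556). Gsta4 had larger values, at 19.1, 23.5 and 27.6 RPKM in LCWE against 16.9, 17.8 and 19.2 RPKM in PBS, with overlap (log2 0.36, adjusted p = 0.387). Summed over the family, Gst genes stood at 282 ± 28.6 RPKM in LCWE intestines and 370 ± 18.1 RPKM in PBS intestines.

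Among glucuronosyltransferases, Ugt2a3, known in humans for conjugating bile acids, stood at 0.657, 1.58 and 0.948 RPKM in LCWE intestines against 13.6, 6.68 and 2.64 RPKM in PBS intestines. The groups did not overlap, but PBS values spread over a wide range (log2 -2.17, SE 0.527, adjusted p = 0.238). The PBS order, with replicate 2 highest and replicate 4 lowest, was also that of the proximal marker sums and of the enterocyte marker sums. Ugt1a1 stood at 20.1, 22.8 and 15.3 RPKM in LCWE against 40.4, 29.3 and 23.9 RPKM in PBS, where PBS again ran in that order (log2 -0.66, SE 0.223, adjusted p = 0.335). Within LCWE neither Ugt2a3 nor Ugt1a1 followed the order of the proximal or the enterocyte sums. Fabp1 carried that proximal sum (50.9, 75.2 and 123 RPKM). Ugt2a3 had there the order of Gata4 (0.216, 1.68 and 0.280 RPKM) and Cybrd1, and Ugt1a1 that of Lct (0.186, 1.46 and 0.138 RPKM). Onecut2 had neither order, and these markers apart from Fabp1 stood low in LCWE. Ugt2b34 stood at 38.6, 29.7 and 25.4 RPKM in LCWE against 46.9, 43.1 and 39.3 RPKM in PBS (log2 -0.48, adjusted p = 0.336). Unlike Ugt2a3 and Ugt1a1, Ugt2b34 ran in the order of the enterocyte sums in both groups, as did Sult1b1. Ugt2b35 went the other way, at 1.92, 1.97 and 2.45 RPKM in LCWE against 1.31, 1.34 and 1.32 RPKM in PBS, with no overlap (log2 0.51, SE 0.124, adjusted p = 0.238).

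Sult1b1 stood at 85.8, 68.4 and 48.3 RPKM in LCWE intestines against 126, 95.6 and 86.4 RPKM in PBS intestines, so that the groups nearly touched (log2 -0.62, SE 0.235, adjusted p = 0.363). Sult1d1 stood at 48.6, 47.8 and 39.3 RPKM in LCWE against 53.6, 59.6 and 50.4 RPKM in PBS (log2 -0.27, SE 0.119, adjusted p = 0.417). Sult2b1 stood at 5.84, 4.22 and 3.66 RPKM in LCWE against 5.88, 6.61 and 6.16 RPKM in PBS (log2 -0.43, SE 0.166, adjusted p = 0.376). All 3 lay below PBS in every LCWE library, by the least for Sult2b1, where 5.84 and 5.88 RPKM were almost equal. Sult1c2, at 0.659, 0.718 and 1.25 RPKM in LCWE against 0.227, 0.169 and 0.465 RPKM in PBS, was higher without overlap (log2 0.80, SE 0.229, adjusted p = 0.285). It reached the filter of 0.5 RPKM only in its LCWE libraries, so the filter itself favoured this direction and the lack of overlap.

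Enterocyte markers (7 of 7 in the table) summed to 7873, 5130 and 2471 RPKM in LCWE intestines against 20330, 16000 and 10680 RPKM in PBS intestines, and proximal and distal sums differed as given above. Fabp2 and Apoa4 carried most of the enterocyte gap. LCWE libraries lay entirely below PBS libraries for 3 of the 7, and 0 were called. Krt20, Vil1, Sis and Slc5a1 overlapped, and LCWE replicate 1 was above every PBS library for Sis and Slc5a1. Leukocyte markers summed to 136, 186 and 190 RPKM in LCWE intestines against 109, 145 and 137 RPKM in PBS intestines. Their part in the intestinal differences was not tested, and the part of the intestine sampled and the treatment cannot be told apart for genes that vary along its length.

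The authors' deposited table of intestinal differences lists 220 genes, among them 3 members, and none at a false discovery rate below 0.05. In the authors' deposited table Gstm3 has a log2 fold change of -2.40 (p = 0.0152), Gstm6 of -1.43 (p = 0.00579) and Sult1c2 of 1.19 (p = 0.0194), each with a false discovery rate of 0.479. For liver the authors' deposited table lists 797 genes and 0 members.

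**Figure D4:**
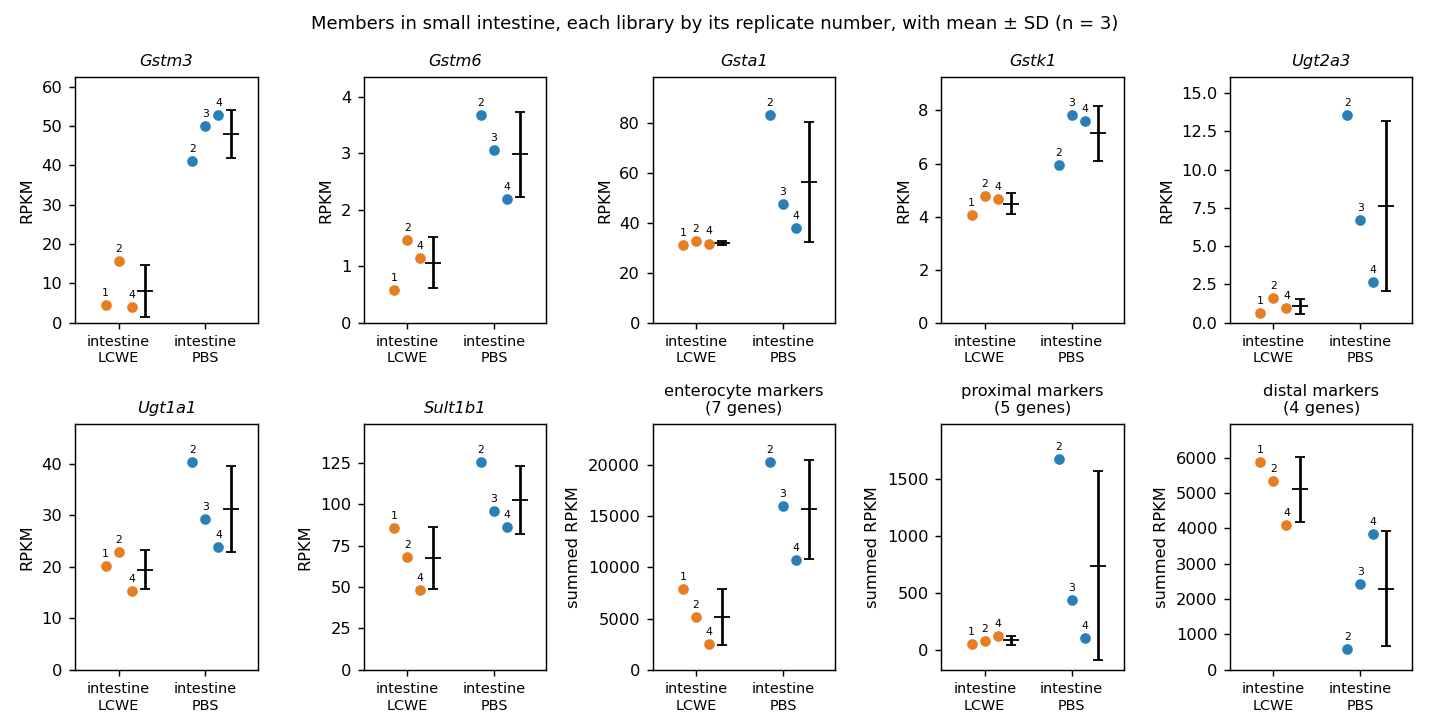
RPKM of 7 members and summed RPKM of enterocyte, proximal and distal markers in each intestinal library, LCWE left of PBS, each point marked with its replicate number and the black bar giving mean ± SD (n = 3). Gstm3 lies between 3.90 and 15.6 RPKM in LCWE and between 41.2 and 52.9 RPKM in PBS. Ugt2a3, Gsta1, Ugt1a1 and Sult1b1 run in the order of the proximal marker sum, which Fabp1 carries, in PBS but not in LCWE. Sult1b1 runs in the order of the enterocyte marker sum in both groups.

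The difference of the LCWE effects, liver minus intestine, was tested in 1 fit over the 4 groups. Of 47 tested members 0 passed, where 0.736% of 18619 genes did, and 12 members had an unadjusted p below 0.05, where 12.8% of genes did. The smallest p belonged to Gsta4, whose effect of -0.70 in liver and 0.36 in intestine gave a difference of -1.06 (SE 0.223, adjusted p = 0.0583). Gstm3 followed with a difference of 2.54 (SE 0.563, adjusted p = 0.0678), its log2 fold change being -0.23 in liver and -2.77 in intestine. Gsta3 had -0.66 in liver and 0.44 in intestine (difference -1.09, adjusted p = 0.179). In intestine it stood at 3.02, 3.25 and 6.76 RPKM in LCWE against 2.24, 3.09 and 3.42 RPKM in PBS, so that LCWE replicate 4 was far above the rest. Hepatocyte markers summed to 450 RPKM in that library and to between 192 and 239 RPKM in the other 5 intestinal libraries, and their part in the Gsta3 value was not tested. Gsta4 passed without liver PBS replicate 2 (adjusted p = 0.0422) or intestine LCWE replicate 1 (0.0241), Gstm3 without intestine LCWE replicate 2 (0.00134), Ugt2a3 without intestine PBS replicate 4 (0.0217) and Sult2b1 without intestine LCWE replicate 1 (0.0453). The share of all genes called in those fits is not given here, so these calls are no result about the families.

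**Figure D5:**
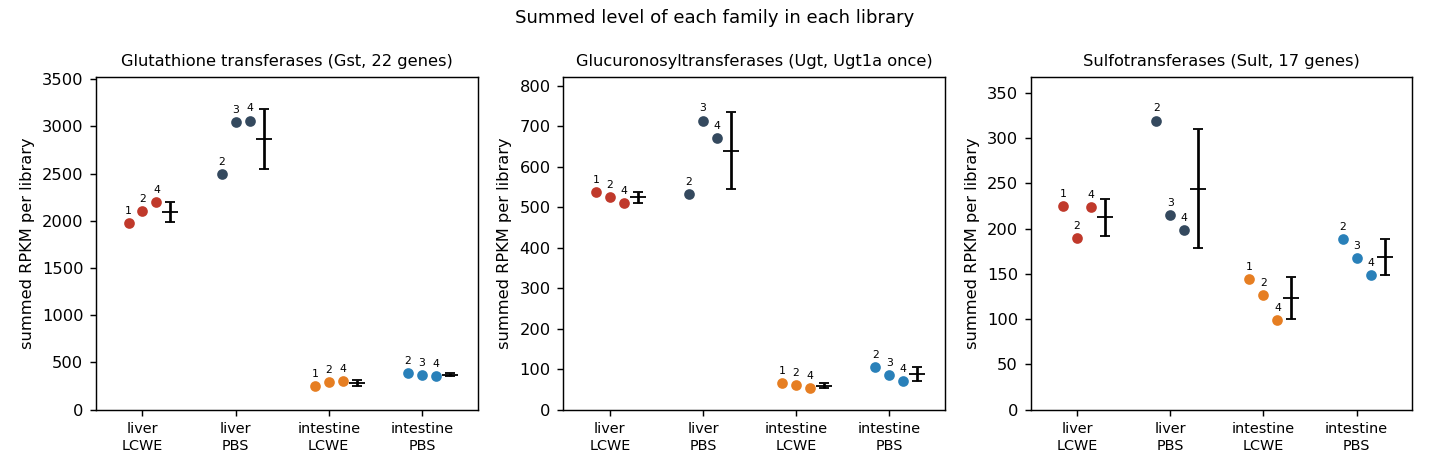
Summed RPKM of each family in each library on the vertical axis, with LCWE left of PBS within liver and within small intestine, replicate numbers beside the points and mean ± SD (n = 3) in black. The Ugt sum counts Ugt1a1 alone for its cluster, and Gst sums are 2094 ± 107 RPKM in LCWE livers and 2867 ± 321 RPKM in PBS livers.

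As a share of all assigned reads, with Ugt1a1 alone for its cluster, the members took 0.501% to 0.538% in LCWE livers against 0.650% to 0.722% in PBS livers. In intestine they took 0.0844% to 0.096% in LCWE against 0.112% to 0.135% in PBS. The ranges did not overlap in either tissue. The Ugt sum was 524 ± 13.04 RPKM in LCWE livers and 639 ± 94.4 RPKM in PBS livers, where PBS replicate 2 lay among the LCWE libraries. The Sult sum was 213 ± 20.3 RPKM in LCWE livers and 244 ± 65.7 RPKM in PBS livers, also with overlap. In intestine the Ugt sum was 59.8 ± 7.05 RPKM in LCWE and 87.1 ± 17.4 RPKM in PBS, and the Sult sum 123 ± 22.9 RPKM in LCWE and 168 ± 19.9 RPKM in PBS, without overlap in either.

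Genes that supply the cosubstrates were taken from fixed lists. Of 8 tested genes of glutathione supply in liver, 0 passed, with a median log2 fold change of -0.01 against 0.06 over all genes. Gclc, the catalytic subunit of the first and rate-limiting enzyme of glutathione synthesis, stood at 44.6, 61.0 and 46.2 RPKM in LCWE livers against 64.0, 103 and 102 RPKM in PBS livers, without overlap (log2 -0.80, SE 0.22, adjusted p = 0.105). Its partner subunit Gclm had a log2 fold change of -0.32 (adjusted p = 0.237). In intestine 0 of 9 passed. Of the glutathione transferases outside the 3 symbol families, 0 of 5 tested in liver and 0 of 7 in intestine passed.

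For glucuronidation, 0 of 5 supply genes tested in liver and 0 of 4 in intestine passed. Ugdh, which makes UDP-glucuronate, stood at 14.0, 9.50 and 7.09 RPKM in LCWE intestines against 16.8, 15.3 and 16.7 RPKM in PBS intestines, without overlap (log2 -0.70, adjusted p = 0.323). For sulfation, 0 of 7 genes passed in either tissue. Papss1, which makes PAPS, was at 7.46, 7.42 and 8.26 RPKM in LCWE livers against 6.08, 6.12 and 5.43 RPKM in PBS livers (log2 0.36, adjusted p = 0.116). Of other conjugating enzymes, 0 of 15 in liver and 0 of 12 in intestine passed. Nnmt, which methylates nicotinamide, came closest, at 53.2, 57.2 and 39.3 RPKM in LCWE livers against 31.0, 18.0 and 19.7 RPKM in PBS livers (log2 1.13, SE 0.237, adjusted p = 0.0529).

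Of 13 regulators tested in liver, 1 rose and 0 fell. Ahr, the receptor that induces several conjugation genes after binding planar aromatic compounds, stood at 3.80, 3.94 and 2.93 RPKM in LCWE livers against 1.97, 1.86 and 1.498 RPKM in PBS livers, without overlap (log2 0.83, SE 0.151, adjusted p = 0.0369). Nr1i3, which encodes the xenobiotic receptor CAR, stood at 11.2, 13.1 and 17.9 RPKM in LCWE livers against 24.5, 21.3 and 18.0 RPKM in PBS livers and did not pass (log2 -0.59, adjusted p = 0.163). Nr1h4, which encodes the bile acid receptor FXR, was at 22.4, 25.1 and 25.2 RPKM in LCWE livers against 34.3, 31.1 and 30.8 RPKM in PBS livers. In intestine it was at 49.3, 30.2 and 41.0 RPKM in LCWE against 12.3, 14.6 and 21.6 RPKM in PBS. It passed in neither tissue alone (log2 -0.40 and 1.30, adjusted p = 0.0807 and 0.204), and it was the single regulator whose effects differed between tissues (difference -1.70, adjusted p = 0.0273). In the intestine 0 of 12 regulators passed. Targets of NRF2 outside the families did not move together in liver, where 4 of 7 were above 0 and 0 passed. Hmox1, for haem breakdown, was at 13.4, 15.8 and 17.5 RPKM in LCWE livers against 6.998, 7.87 and 11.5 RPKM in PBS livers (log2 0.81, adjusted p = 0.0745), whereas Nqo1, a quinone reductase, had a log2 fold change of -0.11 (adjusted p = 0.746).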

How the data were processed

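RNA sequencing of 12 libraries in 4 groups of 3 was analysed, grouped by the tissue and treatment labels. The deposited expression table gives the authors' RPKM per gene and library and the gene length; 4 of its columns matched no sample and were not used. The authors' deposited table of differences gives log2 fold changes, p-values and a false discovery rate, and was used only as quoted. The submitters' processing notes name the build mm10 and, with no roles, the tools edgeR 3.12.1, Subread 1.5.1, featureCounts and Trimmomatic 0.36. Neither strandedness nor the aligner is stated (not given in the sources used here). Multiplying out, the product of RPKM, length and library total was a whole number of reads in 100% of nonzero values (tolerance 0.001).

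Genes with RPKM of at least 0.5 in at least 3 fitted libraries were tested on log2(RPKM + 0.5), which understates the change of low genes, with limma 3.58.1 in R 4.3.3 (lmFit and eBayes with trend; two-sided p adjusted by Benjamini-Hochberg over all tested genes and called below 0.05). Liver and intestine were fitted apart, and the tissue contrasts in 1 fit over 4 groups. The procedure was tested on simulated data. An exact permutation test was not used, as 3 against 3 libraries cannot reach the threshold.

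The members, lists, tests and alternatives were chosen with earlier results of these data known. Named genes were those called for LCWE or for the tissue difference and, per family and tissue, the 3 most abundant and the 2 with the smallest p; others are said to be named after their values were seen or are members of a list or a group described by level. Positions are those of the deposited table; sequences came from GENCODE M21 (mm10) and RefSeq. Depth intervals cover counting error only. Alternatives were other pseudocounts, filters, scalings, voom, a replicate block, fits over other groups and leaving out each library, and, added after seeing the data, Ugt1a genes by their reads beyond the lowest of them, also without liver PBS replicate 2.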

Additional observations from a re-analysis of the deposited data

How the results depend on the processing

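The 3 libraries a group, liver PBS replicate 2, intestine LCWE replicate 4 and PBS replicate 2, and the regional make-up of the intestinal libraries limit what can be read from these data. In liver 1 member was called, and 0 with no filter and 0 with a replicate block, 4 with median-ratio scaling, 4 with voom, 2 in 1 fit over the 4 groups, and between 0 and 5 when leaving out each library. Gsta3 remained called with both other pseudocounts, the stricter filter, both scalings, voom and the Ugt1a alternative, and median-ratio scaling added Gsta4, Gstm1 and Gstm4. Voom added Gsta4, Gstm1 and Sult5a1, and the fit over 4 groups called Gsta4 and Sult5a1 in its place. In intestine 0 were called, but 3 (Gstm3, Gstm6 and Ugt2a3) in 1 fit over the 4 groups, and between 0 and 1 when leaving out each library. For the tissue difference 0 were called, against 1 with median-ratio scaling (Gsta4), 1 with voom (Gstm3) and between 0 and 2 when leaving out each library. Control liver against control intestine gave 43 calls among 47 tested members, and between 39 and 45 in the alternatives. Over all 18619 tested genes this comparison called 3095 higher and 11266 lower in liver. The share of all genes called in each alternative is not given here. The counts by setting thus describe how stable the calls were and are no result about the families. The labels do not say whether same-numbered libraries came from the same animal, and the main fits treat all libraries as unpaired. The deviations of same-numbered libraries correlated between -0.0955 and 0.141, which with 3 libraries a group cannot exclude shared animals. With the replicate numbers as a block Gsta3 had an adjusted p of 0.468 and 0 members were called for LCWE in either tissue. Signs of uncalled members that turned were, in liver, Gsta1 (log2 -0.04, and 0.49 with the block), Gsto1 (-0.04, and 0.0381 with the block) and Ugt1a9 (0.46 by its own reads, and -0.16 by them without PBS replicate 2, where 7 members were called, Gstk1 stood at 0.0478 and Sult1a1 at 0.26). In intestine they were Sult1a1 (0.06, -0.0406 with quantile and -0.0399 with median-ratio scaling) and Gstm1 (-0.35, and 0.0078 with the block), and for the tissue difference Gstp1 (-0.11, and 0.0146 with quantile scaling). Leaving out each library moved liver Gsta1 between -0.37 and 0.26, Gsto1 between -0.111 and 0.0143, Gstk1 between -0.377 and 0.0478 and Sult1a1 between -0.42 and 0.26. It moved intestinal Sult1a1 between -0.19 and 0.28, and the tissue differences of Gstp1 between -0.344 and 0.0109 and of Sult1a1 between -0.487 and 0.196. Beyond the alternatives' own construction, the cause was not tested.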
